A study of Rattus norvegicus with 12 samples.

Results

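The 8 genes described here encode osteopontin (Spp1) and 7 proteins that work with it in a healing wound, namely tenascin-C (Tnc), thrombospondins 1 and 2 (Thbs1, Thbs2), fibronectin (Fn1), Sparc, galectin-3 (Lgals3) and the receptor Cd44. They were taken by name from a table of 34599 rat genes, and all 8 were among the 15101 genes with enough counts to be tested. The set was chosen by its values in these rats, because Spp1 had the highest fold change between MI and Sham, so the MI and Sham levels of the 8 genes are given as a description with no test. The RNA came from left ventricular myocardium of 12 male Sprague-Dawley rats, collected 1 day after surgery, and each library was 1 animal. Of the 3 groups of 4 rats, Sham rats had their chest opened without ligation of the left anterior descending (LAD) coronary artery, and MI (myocardial infarction) rats had the artery ligated and received no treatment. The iCarP+/Light+ rats had the same ligation, an injection of the photosynthetic alga Chlorella into the myocardium 10 min later, and an illuminative cardiac patch (iCarP, a soft polyester sheet carrying an optical fibre) glued onto the heart, which was lit for 3 h at 55 mW. Alga, patch, glue and light were given together to these rats, and rats with an unlit patch were not analysed here, so the parts of the treatment cannot be told apart.

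Matricellular proteins are secreted into the extracellular matrix but act mainly as signals rather than as scaffold. They bind integrins, growth factors and proteases, and many are scarce in the healthy adult heart and appear when tissue is injured. In these rats the RNA of Sparc and Thbs2 was instead highest on average in Sham. Osteopontin and fibronectin carry an RGD motif through which integrins bind them, osteopontin and hyaluronan are both ligands of Cd44, and thrombospondin 1 can activate latent TGF-beta. In the infarcted heart these proteins are made by infiltrating macrophages, fibroblasts and other cells, and they take part in cell recruitment, clearance of debris and scar formation.

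The 12 libraries held 14064414 to 17136958 counts, so that 3 counts, the level read here as the detection limit, corresponded to 0.144 to 0.228 in counts-per-million (CPM). Transcripts of the mitochondrial genome took 22.8 to 28.9% of the counts in Sham and 7.14 to 14.2% in the other 2 groups. Levels are therefore given as CPM scaled by the trimmed mean of M values (TMM), which is less affected by a few very abundant transcripts than total counts are. All 10 cardiomyocyte markers, the check on the labelled tissue, were detected in each group, and their summed level was 47748 to 52119 CPM in Sham and fell to between 3042 and 6049 CPM in MI and between 2464 and 7174 CPM in iCarP+/Light+. In tissue of this kind, fewer cells of a type and less RNA per cell cannot be told apart.

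In MI, 6 of the 8 genes (Spp1, Thbs1, Tnc, Lgals3, Fn1 and Cd44) were higher in every rat than in any Sham rat, Sparc was lower in every rat, and Thbs2 overlapped. Among all tested genes, 27.6% lay higher without overlap and 31.4% lower in the same comparison, and nothing is read from the members' count because this contrast chose them. In iCarP+/Light+ against MI, which was tested with edgeR's quasi-likelihood test and Benjamini-Hochberg adjustment over the 15101 genes, Thbs1, Cd44 and Tnc were higher and Thbs2 was lower at an adjusted p below 0.05. These 4 genes were also the ones whose rats did not overlap. Across all tested genes the same comparison called 11.6% higher and 2.01% lower, and 12.1% lay higher and 4.37% lower without overlap. The median log2 difference of the 8 genes was -0.04, beside 0.01 for all tested genes. Scaling by total counts alone changed the split between directions: of all genes, 1204 were then higher and 2722 lower in place of 1747 and 304, and of the 8 members, 2 were higher and 3 lower in place of 3 and 1. The MI rats enter both this comparison and the one that chose the genes.

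**Figure D1:**
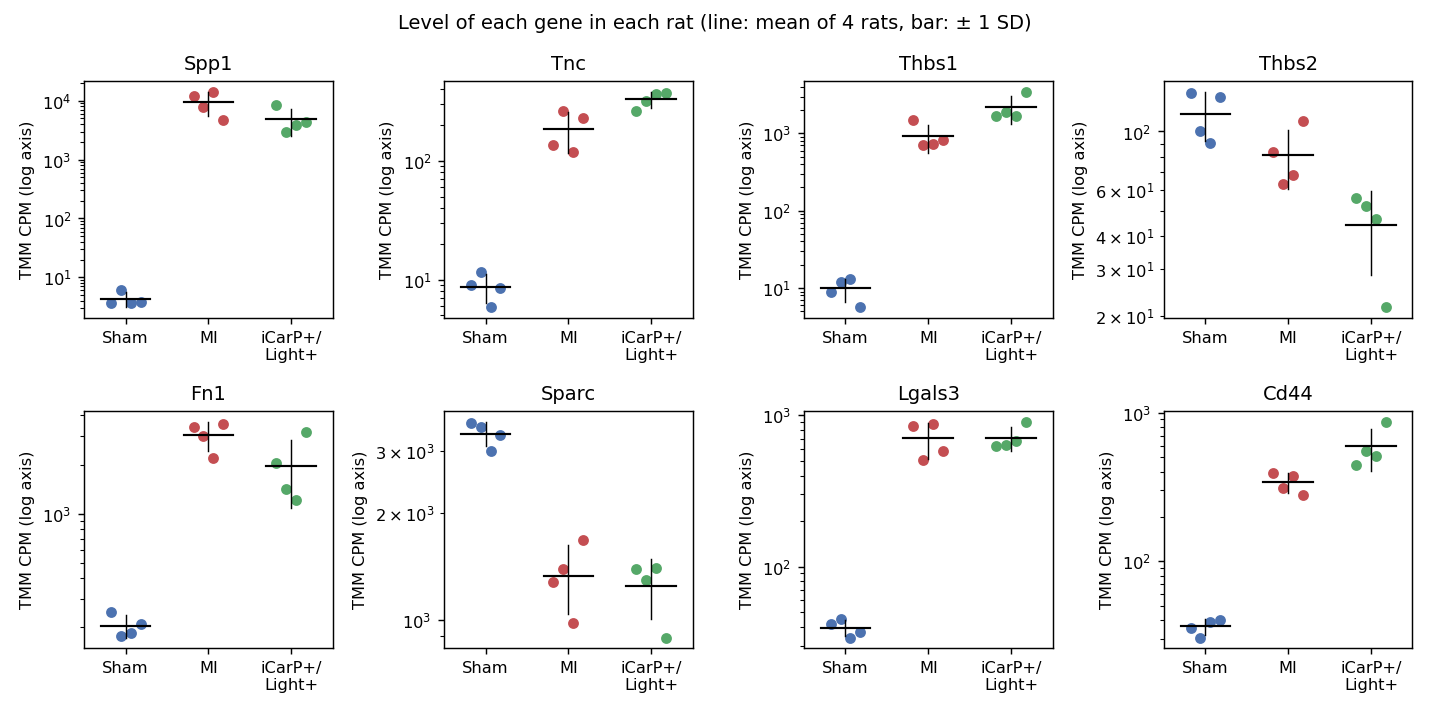
TMM-scaled CPM of the 8 genes on log10 axes, 1 point per rat and 4 rats in each of Sham, MI and iCarP+/Light+, with the line at the mean and the bar at 1 SD on each side. Spp1 went from 4.31 CPM in Sham to 9651 CPM in MI, Sparc and Thbs2 were highest in Sham, and Thbs1, Tnc and Cd44 lay highest in iCarP+/Light+.

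Spp1 (ENSRNOG00000043451, rat genome build rn6, chromosome 14, 6673686 to 6679901, minus strand) encodes osteopontin, a secreted phosphoprotein that macrophages make in large amounts in injured tissue and that binds alpha-v integrins and Cd44. In Sham rats 1, 2, 3 and 5 it was at 3.69, 6.14, 3.64 and 3.76 CPM, which came from 48 to 90 counts. In MI rats 1, 3, 4 and 5 it was at 11809, 7974, 14168 and 4653 CPM. In iCarP+/Light+ rats 1, 2, 4 and 5 it was at 8337, 2989, 3812 and 4345 CPM. Every rat with a ligated artery was thus far above every Sham rat, while iCarP+/Light+ rat 1 lay above MI rats 3 and 5 and the other 3 treated rats lay below all MI rats. Spp1 alone took 0.587 to 1.62% of all counts in MI libraries and 0.295 to 0.872% in iCarP+/Light+ libraries. The fitted log2 difference between MI and Sham was 11.12 (SE 0.56), a 2231-fold difference and the highest of the 15101 genes. Between iCarP+/Light+ and MI the log2 difference was -0.99 (SE 0.36, 95% interval -1.77 to -0.20), with an adjusted p of 0.0968 in edgeR, so the lower mean of 4871 ± 2377 CPM (SD, n = 4) against 9651 ± 4197 CPM (SD, n = 4) did not pass the threshold. The call hung on single rats, since Spp1 passed without iCarP+/Light+ rat 1 (-1.38, edgeR adjusted p = 0.0134) and without MI rat 5 (-1.22, edgeR adjusted p = 0.0328). It also passed with total counts alone (-1.23, edgeR adjusted p = 0.0276) and in DESeq2 (-1.03, adjusted p = 0.0267). Against Sham the treated rats were 10.14 log2 units higher (SE 0.54, edgeR adjusted p = 1.83e-08). That comparison uses the same Sham rats as the one by which Spp1 was chosen.

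Thrombospondins 1 and 2 are closely related trimeric glycoproteins that inhibit angiogenesis and bind Cd47 and Cd36, and they differed in opposite directions between iCarP+/Light+ and MI. Thbs1 (ENSRNOG00000045829, chromosome 3, 109862117 to 109873466, plus strand) is stored in platelets and induced early by injury. It was at 8.96, 11.9, 13.1 and 5.6 CPM in Sham rats 1, 2, 3 and 5. In MI rats 1, 3, 4 and 5 it was at 1470, 704, 721 and 813 CPM, so that MI rat 1 stood well above the other 3. In iCarP+/Light+ rats 1, 2, 4 and 5 it was at 1666, 1904, 1662 and 3455 CPM, where rat 5 stood apart and even the lowest treated rat was above the highest MI rat. The log2 difference between MI and Sham was 6.55 (SE 0.41). Between iCarP+/Light+ and MI, Thbs1 was 2.34-fold higher (log2 1.23, SE 0.32, 95% interval 0.54 to 1.92, edgeR adjusted p = 0.0209). Leaving out iCarP+/Light+ rat 5 lowered the difference to 0.84 and raised its edgeR adjusted p above the threshold (0.0931). The call was also lost without MI rat 3, 4 or 5 (log2 1.11, 1.12 and 1.17), at edgeR adjusted p = 0.0627, 0.0587 and 0.0579.

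Thbs2 (ENSRNOG00000010529, chromosome 1, 56653938 to 56683731, minus strand) is made mostly by fibroblasts and smooth muscle cells and limits matrix metalloprotease 2 by carrying it into cells. In Sham rats 1, 2, 3 and 5 it was at 140.5, 100, 90.8 and 135 CPM. In MI rats 1, 3, 4 and 5 it was at 83.3, 63.4, 68.4 and 109 CPM. In iCarP+/Light+ rats 1, 2, 4 and 5 it was at 55.7, 52.3, 46.5 and 21.5 CPM. MI and Sham overlapped, with a log2 difference of -0.52 (SE 0.27) that turned to 0.06 when scaled by total counts alone, whereas all 4 treated rats lay below all 4 MI rats. Thbs2 was 1.84-fold lower in iCarP+/Light+ than in MI (log2 -0.88, SE 0.27, 95% interval -1.46 to -0.30, edgeR adjusted p = 0.0465). This adjusted p was close to the threshold: it stayed below 0.05 in only 3 of the 12 fits that each left out 1 rat (MI rat 3, iCarP+/Light+ rat 1 or iCarP+/Light+ rat 5) and was 0.0512 to 0.124 in the other 9. Without Sham rats 1, 2, 3 and 5 in turn it was 0.0555, 0.0562, 0.0521 and 0.0570 in edgeR, without MI rats 1, 4 and 5 it was 0.0914, 0.0512 and 0.124, and without iCarP+/Light+ rats 2 and 4 it was 0.0621 and 0.0846. The difference itself ranged only from -1.02 to -0.71 over those fits, and with only the 8 rats of the 2 groups the edgeR adjusted p was 0.0705. Against Sham the log2 difference of the treated rats was -1.40 (SE 0.27, edgeR adjusted p = 5.04e-04).

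The opposite movement of the pair also showed in their ratio per gene length (RPKM, the CPM divided by gene length in kilobases). Thbs1 was at 0.0668 to 0.233 of the Thbs2 level in the Sham rats, at 12 to 28.4 times it in MI and at 48.1 to 258 times it in iCarP+/Light+. The ratio did not overlap between any 2 groups, and the highest value was that of a treated rat with the lowest Thbs2 and the highest Thbs1, iCarP+/Light+ rat 5.

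The sequence just upstream of the start site is shown for Spp1 and Thbs1, the members with the largest differences between MI and Sham. Both windows are the 250 bases before the start in RefSeq (build GRCr8, a later build than that of the counts), printed 5′ to 3′ on the strand of the gene. The Spp1 window lies at chr14:5619805-5620054 (minus strand) and the Thbs1 window at chr3:125510000-125510249 (plus strand), and capitals mark motif matches.
Spp1: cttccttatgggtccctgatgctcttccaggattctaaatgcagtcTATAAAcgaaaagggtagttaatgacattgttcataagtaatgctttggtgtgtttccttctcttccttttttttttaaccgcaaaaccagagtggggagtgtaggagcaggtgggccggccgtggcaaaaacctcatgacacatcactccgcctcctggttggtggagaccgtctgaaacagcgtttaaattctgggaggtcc
Thbs1: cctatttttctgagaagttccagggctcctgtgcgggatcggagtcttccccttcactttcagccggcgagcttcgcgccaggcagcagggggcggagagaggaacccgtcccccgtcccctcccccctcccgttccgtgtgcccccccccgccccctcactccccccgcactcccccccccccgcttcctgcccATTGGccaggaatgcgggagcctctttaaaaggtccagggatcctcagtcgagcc
In Spp1 the capitals are TATAAA, the TATA box core, 204 to 199 bases before the start. In Thbs1 they are ATTGG, the CCAAT box on the opposite strand, 55 to 51 bases before the start. The Thbs1 window had a GC content of 67.6% and the Spp1 window of 46.8%, beside a median of 51.2% over 33469 rat promoters. Windows were found for 5 members (Spp1, Tnc, Thbs1, Sparc and Cd44), and 4 motifs were searched on both strands. TATAAA was in the windows of Spp1 and Tnc (12.9% of all promoters), CCAAT in that of Thbs1 (34.0% of all), and neither the AP-1 motif TGANTCA (6.34% of all) nor the hypoxia response core ACGTG (16.6% of all) was in any of the 5. A match of letters is a description of the window and says nothing of binding.

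Tnc (ENSRNOG00000058645, chromosome 5, 79789671 to 79874671, minus strand) encodes a large hexameric glycoprotein that loosens cell adhesion to fibronectin at wound margins. It was at 8.96, 11.7, 5.84 and 8.48 CPM in Sham rats 1, 2, 3 and 5. In MI rats 1, 3, 4 and 5 it was at 136, 263, 118 and 230.1 CPM, with rats 3 and 5 well above rats 1 and 4. In iCarP+/Light+ rats 1, 2, 4 and 5 it was at 264, 319, 366 and 375 CPM, so that the lowest treated rat was just above the highest MI rat. The log2 difference between MI and Sham was 4.41 (SE 0.30). Tnc was 1.77-fold higher in iCarP+/Light+ than in MI (log2 0.83, SE 0.26, 95% interval 0.27 to 1.38, edgeR adjusted p = 0.0487). The call was lost in 7 of the 12 fits without 1 rat, while the difference ranged from 0.66 to 1.04. Those were the fits without Sham rats 1 and 5 (edgeR adjusted p = 0.0667 and 0.0650), MI rats 1 and 4 (0.134 and 0.107) and iCarP+/Light+ rats 2, 4 and 5 (0.0882, 0.111 and 0.166). With DESeq2's size factors in edgeR the adjusted p was 0.0654, with total counts alone 0.142 and with only the 8 rats of the 2 groups 0.0838.

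Fn1 (ENSRNOG00000014288, chromosome 9, 78900103 to 78969078, minus strand) encodes fibronectin, the adhesive glycoprotein of the provisional matrix. In Sham rats 1, 2, 3 and 5 it was at 248, 176, 185 and 211 CPM. In MI rats 1, 3, 4 and 5 it was at 3416, 2982, 2182 and 3547 CPM. In iCarP+/Light+ rats 1, 2, 4 and 5 it was at 2047, 1414, 1203 and 3157 CPM. The MI rats were all far above Sham (log2 3.89, SE 0.30), and 3 of the treated rats lay below every MI rat while rat 5 lay among them. The log2 difference between iCarP+/Light+ and MI was -0.63 (SE 0.27, 95% interval -1.21 to -0.05, edgeR adjusted p = 0.157). Without iCarP+/Light+ rat 5 it was -1.04 (edgeR adjusted p = 0.0114), and with total counts alone it was -0.92 (edgeR adjusted p = 0.0247). An annotated gene on the other strand overlaps 265 bases of Fn1, but held only 0 to 4 counts in each library. Per length, Tnc was at 0.0464 to 0.103 of the Fn1 level in MI and at 0.138 to 0.355 of it in iCarP+/Light+, and these ranges did not overlap.

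Sparc (ENSRNOG00000012840, chromosome 10, 40742400 to 40764185, minus strand) encodes a collagen-binding protein of fibroblasts and endothelial cells that helps collagen fibrils to mature. It was by far the most abundant member in Sham, at 3611, 3502, 3004 and 3329 CPM in rats 1, 2, 3 and 5. MI rats 1, 3, 4 and 5 had 1277, 1392, 978 and 1686 CPM, all below Sham. The treated rats 1, 2, 4 and 5 had 1387, 1292, 1402 and 890 CPM, in the range of MI but for rat 5. The MI mean was 2.52-fold below Sham (log2 -1.33, SE 0.19). The log2 difference between iCarP+/Light+ and MI was -0.10 (SE 0.18, 95% interval -0.50 to 0.29, edgeR adjusted p = 0.785) and the 2 groups overlapped.

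Lgals3 (ENSRNOG00000010645, chromosome 15, 24141651 to 24165537, plus strand) encodes galectin-3, a sugar-binding lectin that macrophages secrete and that cross-links glycoproteins at the cell surface. It was at 41.8, 44.7, 33.9 and 37.0 CPM in Sham rats 1, 2, 3 and 5. MI rats 1, 3, 4 and 5 had 851, 504, 879 and 584 CPM. The treated rats 1, 2, 4 and 5 had 628, 641, 680.3 and 905 CPM, and the ranges of the 2 ligated groups lay over each other. The MI level was above Sham by 4.16 log2 units (SE 0.22), and iCarP+/Light+ differed from MI by 0.02 log2 units (SE 0.19, 95% interval -0.39 to 0.43, edgeR adjusted p = 0.967).

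Cd44 (ENSRNOG00000006094, chromosome 3, 92696313 to 92783658, minus strand) is the receptor of the set, a surface glycoprotein of leukocytes and activated stromal cells that binds hyaluronan and osteopontin. In Sham rats 1, 2, 3 and 5 it was at 35.6, 30.6, 39.2 and 40.4 CPM. In MI rats 1, 3, 4 and 5 it was at 395, 313, 375 and 278 CPM. In iCarP+/Light+ rats 1, 2, 4 and 5 it was at 442, 555, 510.4 and 865 CPM. The 3 groups were fully separated, with Sham lowest and iCarP+/Light+ highest. The log2 difference between MI and Sham was 3.22 (SE 0.21). Cd44 was 1.74-fold higher in iCarP+/Light+ than in MI (log2 0.80, SE 0.20, 95% interval 0.38 to 1.23, edgeR adjusted p = 0.0149), the smallest adjusted p of the 8 genes. It passed in 11 of the 12 fits without 1 rat, and without iCarP+/Light+ rat 5 the difference was 0.49 (edgeR adjusted p = 0.0606). The call was also lost when only the 8 rats of the 2 groups were fitted (edgeR adjusted p = 0.0554).

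**Figure D2:**
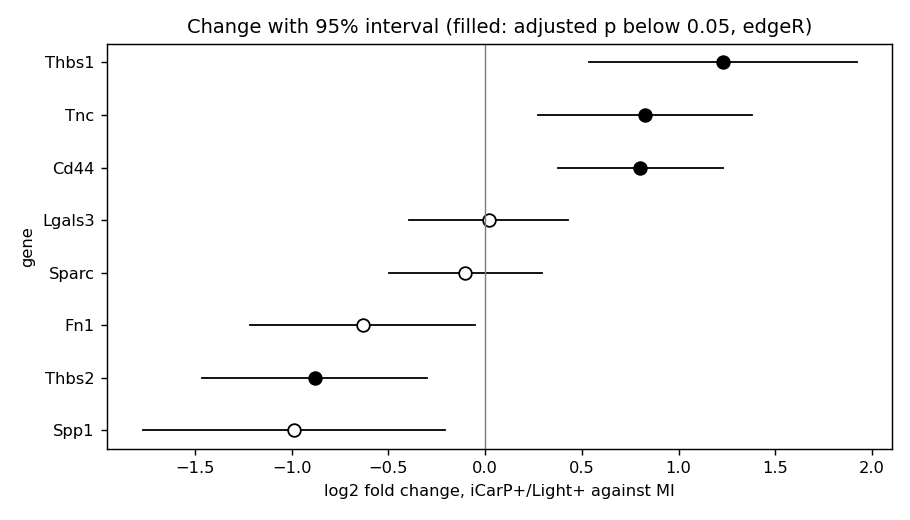
Log2 difference between iCarP+/Light+ and MI for the 8 genes from the edgeR fit, with 95% intervals (4 rats a group), filled where the adjusted p was below 0.05. Thbs1, Tnc and Cd44 lie to the right of 0 and Thbs2 to the left with adjusted p below 0.05, Spp1 and Fn1 lie to the left without passing, and Sparc and Lgals3 lie close to 0.

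Against Sham, all 8 genes passed the threshold in iCarP+/Light+ rats, 6 higher and 2 lower (Sparc and Thbs2), beside 33.5% of all tested genes called higher and 33% lower. The Sham rats enter both this comparison and the one that chose the genes. The 6 higher genes, from the largest to the smallest log2 difference, were Spp1 at 10.14, Thbs1 at 7.78, Tnc at 5.24, Lgals3 at 4.18, Cd44 at 4.02 and Fn1 at 3.25. Sparc differed by -1.44 (SE 0.19, edgeR adjusted p = 1.77e-05).

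Many of the extremes came from a single treated animal. Rat 5 of iCarP+/Light+ was the highest of its group in 5 of the 8 genes (Tnc, Thbs1, Fn1, Lgals3 and Cd44) and the lowest in 2 (Thbs2 and Sparc). This rat also had the highest summed neutrophil markers of the 12 rats, at 8042 CPM, the lowest summed fibroblast markers, at 1291 CPM, and the lowest summed cardiomyocyte markers, at 2464 CPM. The part of these markers in its levels was not tested.

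Compared per length, the make-up of the 8-gene set turned over from Sham to the ligated groups. In Sham, Sparc made up 94.4 ± 0.187% (SD, n = 4) of the summed RPKM of the 8 genes and Spp1 0.164 ± 0.0422%. In MI, Spp1 made up 73.4 ± 10.3%, with 59.1% in the lowest rat and 83.4% in the highest, followed by Sparc at 8.92%, Lgals3 at 7.98%, Fn1 at 4.88% and Thbs1 at 3.19%. In iCarP+/Light+, Spp1 made up 56.3 ± 10.9% (48.4 to 72.3%), Lgals3 12.6%, Sparc 11.6% and Thbs1 11.3% (6.0 to 16.5%), where the range of Thbs1 lay above its MI range of 1.76 to 4.29%. Spp1's share overlapped between MI and iCarP+/Light+. By mean RPKM among the 15101 genes, Spp1 ranked 10438th in Sham, 6th in MI and 18th in iCarP+/Light+, while Sparc ranked 46th, 104th and 140th. Thbs1 ranked 10574th, 267th and 142nd, and Thbs2 ranked 3893rd, 4935th and 7463rd.

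**Figure D3:**
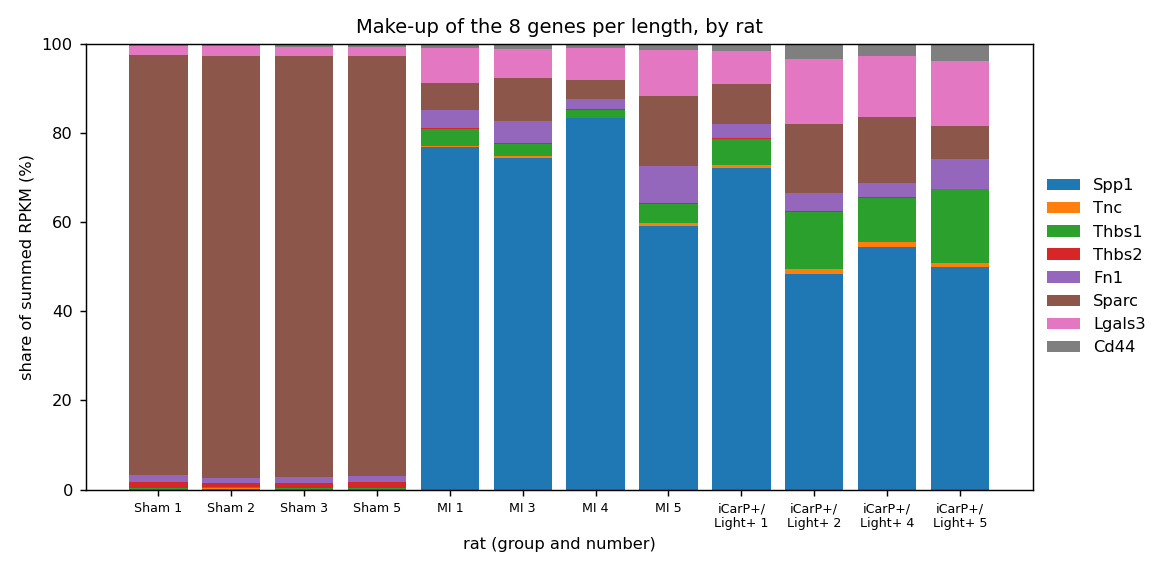
Share of each of the 8 genes in their summed RPKM (percent, stacked to 100), 1 bar per rat. Sparc fills 94.2 to 94.7% of each Sham bar, and Spp1 fills 59.1 to 83.4% of each MI bar and 48.4 to 72.3% of each iCarP+/Light+ bar.

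The order of the levels per length within MI was Spp1 (6353 RPKM), Lgals3 (649 RPKM), Sparc (646 RPKM), Fn1 (361 RPKM), Thbs1 (254 RPKM), Cd44 (85.6 RPKM), Tnc (25.9 RPKM) and Thbs2 (13.8 RPKM). The neighbours Lgals3 and Sparc lay within each other's spread between rats. In iCarP+/Light+ the order was Spp1 (3206 RPKM), Lgals3 (657 RPKM), Sparc (602 RPKM), Thbs1 (594 RPKM), Fn1 (233 RPKM), Cd44 (149 RPKM), Tnc (45.9 RPKM) and Thbs2 (7.49 RPKM). There Lgals3, Sparc and Thbs1 lay within each other's spread. The ligand to receptor ratio per length, Spp1 to Cd44, lay between 0.243 and 0.525 in Sham, between 43.8 and 98.8 in MI and between 13.1 and 49.3 with treatment, and the last 2 ranges overlapped.

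Profiles over the 12 rats (log2 CPM, each gene centred on its mean) were compared by their root mean square difference, over 13659 protein-coding genes. The gene most like Spp1 was Mmp12, macrophage elastase, at a difference of 1.2 log2 units, followed by Adam8 at 1.81, whereas the nearest gene of every other member lay within 0.45. Mmp12 had only 1 to 4 counts in each Sham rat, so its difference from Spp1 rests on a Sham level near the detection limit. Between the ligated groups Mmp12 averaged 97.5 CPM in MI and 107.6 CPM in iCarP+/Light+, where Spp1 averaged 9651 and 4871 CPM. Thbs1 was nearest to Adam8 (0.45), Tnc to Timp1 (0.39), an inhibitor of matrix metalloproteases, and Fn1 to Slc7a8 (0.36) and Myc (0.36). Cd44 was nearest to Ptprc (0.13), the pan-leukocyte antigen CD45, and to Arhgap30 (0.15) and Lsp1 (0.17). Lgals3 was nearest to Cebpe (0.19), a granulocyte transcription factor, Thbs2 to Scrn1 (0.23) and Col6a2 (0.28), a collagen VI chain, and Sparc to Jup (0.11). Among the 8 genes themselves, Lgals3 and Cd44 (0.46) and Thbs2 and Sparc (0.47) were the nearest pairs, and Spp1 and Sparc (5.67) the farthest. All 12 rats enter these differences, so genes with like fold changes against Sham tend to lie near each other. The part of each difference that came from the step between Sham and the ligated groups was not measured.

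Of 20 tested genes for other secreted matricellular proteins, 9 were higher and 8 lower in MI than in Sham, beside 30.2% and 33.6% of all tested genes, with a median log2 difference of 0.14. The 3 highest by the fit were CCN proteins, Ccn2 (log2 3.25, SE 0.26, edgeR adjusted p = 3.68e-07), Ccn1 (log2 2.69) and Ccn4, for which no fold change is given because it had only 0 to 4 counts in each Sham rat, against 24 to 72 in each MI rat. At the other end, Ccn3 (log2 -2.99, and -3.74 without MI rat 1), Sparcl1, a relative of Sparc (log2 -2.75, SE 0.29, edgeR adjusted p = 3.03e-06), and Lgals9 (log2 -2.09) were lowest. In iCarP+/Light+ against MI none of the 20 was higher and 5 were lower at an adjusted p below 0.05, with a median of -0.39, where 11.6% of all tested genes were higher and 2.01% lower. Ccn2, connective tissue growth factor, was at 448 to 530 CPM in MI and at 160.2 to 325 CPM in the treated rats (log2 -0.97, SE 0.24, edgeR adjusted p = 0.0150). Thbs4, a thrombospondin of the pentameric subgroup, fell by 1.62 on the log2 scale (SE 0.43, edgeR adjusted p = 0.0240) and Lgals1, galectin-1, by 0.81 (SE 0.17, edgeR adjusted p = 0.00669). For Thbs4, MI rat 1 stood at 40.6 CPM and the other 3 MI rats at 11.5 to 13.1 CPM, and without that rat the difference was -0.98 (edgeR adjusted p = 0.0762), as it was -1.38 (edgeR adjusted p = 0.0668) without iCarP+/Light+ rat 2. Fbln5 and Tgfbi fell by 0.69 and 0.62, and the rats of the 2 groups overlapped for both. The call of Fbln5 was lost without MI rat 1 or 5 or iCarP+/Light+ rat 2 or 4 (edgeR adjusted p = 0.0619 to 0.0880), and that of Tgfbi without MI rat 1 or 4 or iCarP+/Light+ rat 1, 2 or 4 (edgeR adjusted p = 0.0514 to 0.0738). The count was 2 without MI rat 1 or without iCarP+/Light+ rat 2, and 8, all lower, with total counts alone.

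Of 17 receptors of these proteins, 8 were higher and 4 lower in MI than in Sham (median log2 0.47), where 30.2% of all tested genes were higher and 33.6% lower. Sdc1, a heparan sulfate syndecan (log2 5.12, SE 0.27, edgeR adjusted p = 3.96e-08), Sdc4 (log2 3.28) and Itga4 (log2 2.33), whose integrins bind fibronectin and osteopontin, were highest, and Itga9 (log2 -1.44), Itga8 (log2 -1.07) and Itga6 (log2 -0.85) lowest. With total counts alone the split was 12 higher and 1 lower. In iCarP+/Light+ against MI, 5 receptors were higher and 2 lower (median 0.20), beside 11.6% and 2.01% of all tested genes. Itgav, the alpha-v subunit that pairs with Itgb3 and Itgb8 to bind RGD ligands such as osteopontin, was at 29.6 to 37.2 CPM in Sham rats, between 27.5 and 53.1 CPM in MI rats and between 83.6 and 182 CPM in treated rats (log2 1.65, SE 0.24, edgeR adjusted p = 5.49e-04). Itgb8 (log2 1.69, SE 0.37, edgeR adjusted p = 0.00765) and Itgb3 (log2 1.08, edgeR adjusted p = 0.0449) were higher as well, as was Tlr4 (log2 0.68). Sdc4 (log2 0.83) completed the 5 and was named after its values were seen, and its call was lost without MI rat 3 or iCarP+/Light+ rat 2 or 5 (edgeR adjusted p = 0.0601, 0.0627 and 0.0899). The call of Itgb3 held only without MI rat 5 or iCarP+/Light+ rat 1 among the fits that left out 1 rat (edgeR adjusted p = 0.0555 to 0.205 in the others), and that of Tlr4 was lost without iCarP+/Light+ rat 5 (log2 0.49, edgeR adjusted p = 0.0681). Stab1, the scavenger receptor that takes up Sparc (log2 -0.89), and the laminin receptor subunit Itga6 (log2 -0.74) were lower. With total counts alone the split was 2 higher and 6 lower, so the direction of this list depended on the scaling.

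Hyaluronan, the main ligand of Cd44, is a polysaccharide, and the genes counted here were those that make, bind or break it down together with Srgn and with Ezr, Rdx and Msn, which link Cd44 to the cytoskeleton. Of 16 tested, 11 were higher and 1 lower in MI than in Sham (median log2 1.39), led by the synthase Has1 (log2 3.70, and 4.31 without Sham rat 3), the hyaluronan-binding proteoglycan Vcan (log2 3.42) and Tnfaip6 (log2 3.35), with the hyaluronidase Hyal1 lower (log2 -1.97). Over all tested genes the shares in this comparison were 30.2% higher and 33.6% lower. The smallest increases among those named by the rule were Hyal2 (log2 0.50) and Ezr (log2 0.75). In iCarP+/Light+ against MI, 4 were higher and none lower (median 0.30), with 11.6% of all tested genes higher and 2.01% lower. Srgn, serglycin, a granule proteoglycan of leukocytes that can bind Cd44, was at 184 to 410 CPM in MI and at 855 to 1718 CPM in the treated rats (log2 2.34, SE 0.25, edgeR adjusted p = 4.86e-05). Hyal3 (log2 0.64), Cemip2 (log2 0.63) and the Cd44 linker Msn (log2 0.48) were the others. The call of Hyal3 was lost without iCarP+/Light+ rat 5 (edgeR adjusted p = 0.0887), that of Cemip2 without MI rat 1 or iCarP+/Light+ rat 2 or 5 (0.0550 to 0.111), and that of Msn without MI rat 3, 4 or 5 or iCarP+/Light+ rat 2, 4 or 5 (0.0505 to 0.175). The count was 2 without iCarP+/Light+ rat 2 and 1 without iCarP+/Light+ rat 5, and with total counts alone it was 1 higher and 1 lower.

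Of 14 tested enzymes that cleave, cross-link or phosphorylate these proteins, 11 were higher and 1 lower in MI than in Sham (median log2 2.03), against 30.2% higher and 33.6% lower over all tested genes. Mmp12, a metalloprotease that cuts osteopontin, had 1 to 4 counts in each Sham rat and 1412 to 3223 in each MI rat (edgeR adjusted p = 2.25e-08), a Sham level too low for its fold change to be given. Mmp9 had 2 to 14 counts in each Sham rat and 472 to 553 in each MI rat (edgeR adjusted p = 2.68e-07), and its fold change is withheld on the same ground. Mmp14 (log2 1.34) and Tgm2 (log2 0.85) were also higher. Mmp2 was the gene that was lower (log2 -1.95). Mmp3 had no count in any Sham rat and 0 to 10 counts in MI rats, so no fold change is given although it passed. In iCarP+/Light+ against MI, 5 were higher and none lower (median 0.44), beside 11.6% and 2.01% of all tested genes, while with total counts alone 4 were higher and 2 lower. Mmp9 was at 22.6 to 30.2 CPM in MI and at 443 to 1254 CPM in the treated rats (log2 4.93, SE 0.35, edgeR adjusted p = 3.13e-06). Tgm1, a transglutaminase, was at 5.94 to 15.7 CPM in MI and at 117 to 290.4 CPM in the treated rats (log2 4.34, SE 0.43, edgeR adjusted p = 2.77e-05). Mmp2 (log2 0.89), which Thbs2 protein clears, Mmp14 (log2 0.48) and Mmp3 (21 to 28 counts in each treated rat) completed the set. The call of Mmp3 was lost without MI rat 3 or any 1 of the treated rats (edgeR adjusted p = 0.0506 to 0.0800), and that of Mmp14 without Sham rat 2 or 5, MI rat 3, 4 or 5 or iCarP+/Light+ rat 2, 4 or 5 (edgeR adjusted p = 0.0549 to 0.221). The count was 3 without iCarP+/Light+ rat 2.

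**Figure D4:**
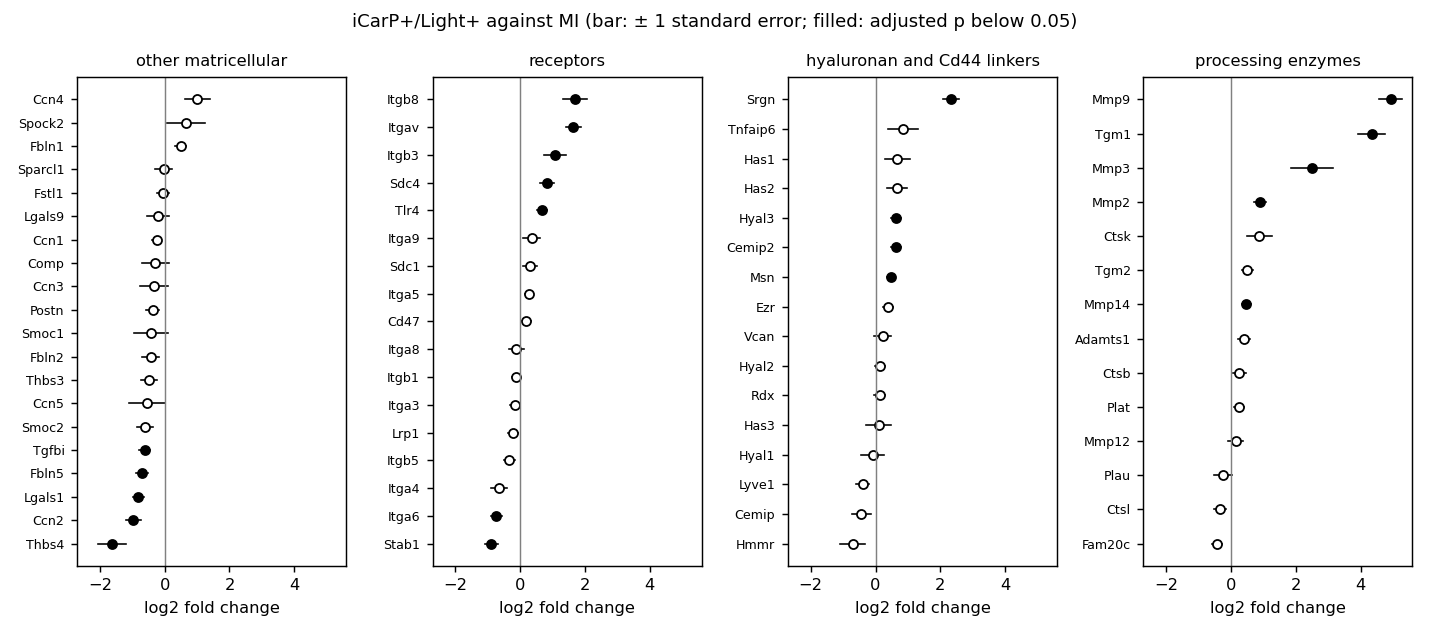
Log2 difference between iCarP+/Light+ and MI for each tested gene of the 4 related lists, 1 point per gene with 1 standard error on each side, filled where the edgeR adjusted p was below 0.05. Mmp9, Tgm1 and Mmp3 among the enzymes lie farthest to the right, followed by Srgn in the hyaluronan panel, and the called genes of the other matricellular proteins all lie to the left.

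Some cell type markers also differed between the groups, some higher and some lower, and their part in the results was not tested. For the marker counts given here between iCarP+/Light+ and MI, 11.6% of all tested genes were higher and 2.01% lower, with a median log2 difference of 0.01. The 11 macrophage markers in the table, all detected in every group, summed to between 559 and 862 CPM in the Sham rats, to between 4117 and 7207 CPM in the MI rats and to between 3171 and 5038 CPM in the treated rats, in which 1 of them was higher and 3 were lower than in MI. MI rat 4 was highest and MI rat 5 lowest of the MI rats both in Spp1 and in this sum, whereas among the treated rats the sum was highest in rat 5 (5038 CPM) and Spp1 in rat 1, whose sum was 4423 CPM. Lyz2 alone made up most of the sum in MI, at 2794 to 5495 CPM. Of the other macrophage markers, Aif1, Fcgr1a, C1qa and C1qb were likewise highest in MI rat 4 and lowest in MI rat 5. By contrast, Cd68, Csf1r, Mrc1 and Cd163 were highest in MI rat 1 and lowest in MI rat 3. Adgre1 was highest in MI rat 1, and Cd14 was lowest in MI rat 3. The 8 neutrophil markers, all detected in every group, summed to 20.7 to 34.9 CPM, 418 to 706 CPM and 2757 to 8042 CPM, and all 8 passed as higher in the treated rats against MI (median log2 3.22). Within MI the order of the rats could differ: MI rat 4 had the highest neutrophil sum of the MI rats (706 CPM) but the lowest Tnc (118 CPM), and MI rat 1, at a sum of 467 CPM, had the highest Thbs1 (1470 CPM) and Cd44 (395 CPM). Among the treated rats, rat 1 had the lowest neutrophil sum (2757 CPM), Tnc (264 CPM), Cd44 (442 CPM) and Lgals3 (628 CPM). Treated rat 5 had the highest sum (8042 CPM), Tnc (375 CPM) and Cd44 (865 CPM). Thbs1, Fn1 and Lgals3 were also highest in that rat, while Spp1, Thbs2 and Sparc were not. The 8 fibroblast markers, none at 0, had sums between 8786 and 10936 CPM in Sham, between 2488 and 2876 CPM in MI and between 1291 and 2883 CPM with treatment, beside the lower Sparc of both ligated groups. Only treated rat 5 lay below 2299 CPM, and between iCarP+/Light+ and MI, where Thbs2 was lower, the 8 fibroblast markers had a median log2 difference of -0.34. Dcn alone passed, as higher and with overlap, 6 of the 8 lay below 0 without passing, and Col3a1 was lower in every treated rat than in any MI rat. The 5 platelet markers summed to 20.1 to 33.8 CPM, 74.2 to 237 CPM and 94.8 to 236 CPM, with Gp1bb at 0 in Sham and MI, and neither of the 2 that could be tested passed between iCarP+/Light+ and MI. Pf4 made up most of each sum, at 15.8 to 28.0 CPM in Sham, 66.8 to 234 CPM in MI and 83.3 to 223 CPM with treatment. Itga2b was at 3.89 to 6.49 CPM, 3.13 to 9.17 CPM and 7.92 to 11.8 CPM, and Ppbp, Gp9 and Gp1bb had too few counts to be tested. Red blood cell markers were at 2503 to 6928 CPM in MI and 6183 to 17465 CPM in iCarP+/Light+, and 4 of 6 passed as higher. Of the 10 cardiomyocyte markers none passed between the 2 ligated groups. The 7 endothelial markers in the table (593 to 910 CPM in MI and 772 to 911 CPM in iCarP+/Light+, Cldn5 at 0 throughout) and the 5 smooth muscle and pericyte markers (229 to 429 CPM and 242 to 336 CPM) had none that passed either.

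**Figure D5:**
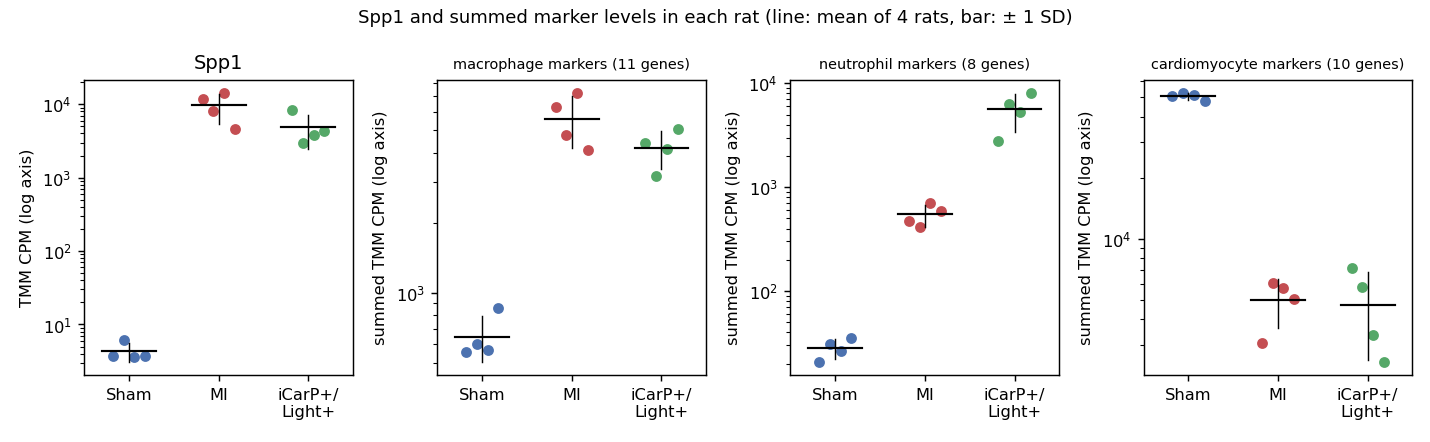
TMM-scaled CPM of Spp1 and the summed CPM of the 11 macrophage, 8 neutrophil and 10 cardiomyocyte markers on log10 axes, 1 point per rat, with the line at the mean of 4 rats and the bar at 1 SD on each side. Spp1 and the macrophage sum reach their highest values in MI, the neutrophil sum is highest in iCarP+/Light+ at 2757 to 8042 CPM, and the cardiomyocyte sum is highest in Sham.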

How the data were processed

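RNA-seq libraries (NEBNext Ultra kit, per the labels) of 12 rats were analysed, 4 in each of 3 groups. The authors deposited raw read counts per gene, with no normalization; per the submitters' processing notes reads were aligned to rn6 with HISAT2 and counted with featureCounts, and their versions, the strand setting and the annotation release are not given in the sources used here. Library totals were 14064414 to 17136958 counts, of which 1716 rows of unannotated transcripts took 0.756 to 1.06%. The 8 genes and all gene lists were chosen with earlier results of these data known.

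Genes were kept by edgeR's filterByExpr (minimum count 10), scaled by TMM and fitted by the quasi-likelihood test over all 12 rats (edgeR 4.0.16, limma 3.58.1, R 4.3.3), with group as the only term. P-values were adjusted over 15101 genes by the Benjamini-Hochberg method, with a threshold of 0.05. No source names a batch. The rats are separate animals, and all tests were two-sided. SE is the log2 difference divided by the square root of F. Named genes were all members and, in each list and for MI against Sham and iCarP+/Light+ against MI, the 3 highest and 3 lowest log2 differences that passed; the 3 nearest profiles to each member were found by root mean square difference. RPKM used the gene length in the table. Levels between groups rest on the spread between 4 rats, and counting error adds most for genes with few counts, such as Ccn4, Mmp3 and Mmp12 in Sham. On counts simulated from these libraries for iCarP+/Light+ against MI (15101 genes), 62.6% of genes changed by 1 log2 unit were called and 94.6% of those changed by 2, with 4.91% false calls. Alternatives were other scaling, filters, tools (DESeq2 1.42.0, limma-voom), sample sets, the replicate number as a block and each rat left out. Tnxb, Cd36, Itgam, Ccr2 and Pecam1 of the lists were not analysed here.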

Additional observations from a re-analysis of the deposited data

Results flagged for a closer look

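Spp1 in Sham rat 2, at 6.14 CPM, lay apart from the other 3 Sham rats, which were at 3.64 to 3.76 CPM. On the log2 scale its gap to the nearest rat was 0.941 of the group's range, above Dixon's 95% critical value for 4 samples. On that scale it was the only one of 24 groups (8 genes in 3 groups) to stand out, and chance flags about 1 group in 20. On the CPM scale the ratio was 0.954, and Thbs1 in MI, with rat 1 highest, and in iCarP+/Light+, with rat 5 highest, also passed that value, at 0.857 and 0.865. The log2 difference of Spp1 between MI and Sham was 11.35 without this rat and 11.12 with it.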

How the results depend on the processing

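Of 240 values of the members under other settings (8 genes, 3 comparisons), 219 stayed on their side of the threshold or within the spread between rats (212 with their sign kept, and Lgals3 between iCarP+/Light+ and MI, 0.02 here, with its sign turned in 7 settings), 11 no longer passed, 3 newly passed, 6 moved by more than the spread between rats and 1 reversed; leaving out 1 rat, 264 of 288 stayed likewise (260 with their sign kept, and with the sign turned for Lgals3 in 3 fits and Sparc in 1, neither of them called), 21 no longer passed and 3 newly passed. All 8 calls against Sham in iCarP+/Light+ held in every setting, in a comparison that shares its Sham rats with the one that chose the genes. When scaled by total counts alone, all genes together had a median that moved to 0.52 for MI against Sham and to -0.25 for iCarP+/Light+ against MI (log2); Thbs2 then stood at 0.06 for MI against Sham (-0.46 relative to that median) and the members' median at 4.60 (4.08 relative to it), and between iCarP+/Light+ and MI 8 other matricellular genes and 2 hyaluronan genes passed in place of 5 and 4. Fitting only the 8 rats of the 2 groups compared left 1 member (Thbs1) past the threshold between iCarP+/Light+ and MI, with 3 other matricellular genes and 1 hyaluronan gene, and edgeR adjusted p of 0.0838 for Tnc, 0.0705 for Thbs2 and 0.0554 for Cd44. Asking for 10 counts in every sample left 2 of 5 enzymes, because Mmp9, Tgm1 and Mmp3 fell below 10 counts in Sham rats and were not tested. That filter put Tnc at an edgeR adjusted p of 0.0662, and leaving out mitochondrial genes put Tnc at 0.0577.

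Over the 12 fits without 1 rat, the members called between iCarP+/Light+ and MI ranged from 1 to 5. The count was 1 without MI rat 4 and 2 without Sham rat 1 or 5, MI rat 1 or iCarP+/Light+ rat 2, 4 or 5. The ranges were 2 to 5 for the other matricellular genes, 1 to 4 for the hyaluronan genes and 3 to 5 for the enzymes. The cause of these changes was not tested, apart from fewer rats in a fit.

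The replicate numbers pair no animals: residuals of same-numbered rats of different groups correlated at -0.15 to 0.065 (9 pairs) and those of other rats at -0.151 to 0.203 (39 pairs). With the replicate block, 0 of the 8 members passed between iCarP+/Light+ and MI in place of 4, with edgeR adjusted p of 0.0743 for Cd44, 0.0915 for Thbs1, 0.0953 for Thbs2 and 0.128 for Tnc, and the counts were 1 for the other matricellular genes, 1 for the hyaluronan genes and 3 for the enzymes.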
